A study of Streblospio benedicti with 24 samples.

Results

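Oocytes of PL females were compared with oocytes of LL females in the polychaete *Streblospio benedicti*, using 5 PL and 7 LL libraries of the 24 in the series. PL females were F1 hybrids from a laboratory cross of a planktotrophic mother (PP, a population of Bayonne, New Jersey) and a lecithotrophic father (LL, a population of Long Beach, California). LL females came from LL parents, so that PL and LL females had a father of the same morph and differed in the morph of the mother. All females were lab-reared and kept apart from males, and each library held the unfertilized oocytes of 1 female, pooled as 1 clutch. The remaining 7 PP libraries and the 5 libraries of the reciprocal cross LP entered the fits and are given only beside the PL and LL values. A description of 2 technical replicates stood with all 5 PL libraries and with LL replicates 6 and 7, and LL replicates 1 to 5 had none. What it means is not stated, and the study's methods say that F1 libraries were sequenced separately from those of PP and LL. PL and LL replicates 1 to 5 therefore differed in cross and in label at once, and these cannot be told apart there. PL and LL replicates 6 and 7 shared the label, and no label gives the run of any single library.

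*S. benedicti* is known for having 2 heritable forms of development within 1 species. Planktotrophic females make small eggs that become feeding larvae, and lecithotrophic females make large, yolk-rich eggs whose larvae need not feed. The RNA of an oocyte is made by the mother before fertilization and directs the first steps of the embryo, so oocytes of an F1 female hold RNA transcribed from a genome with 1 set of P and 1 set of L alleles. The comparison of PL with LL asks which oocyte transcripts change when the maternal set of an L genome is replaced by a P set.

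Counts on genes ranged from 7489256 to 32251684 in PL and from 10591254 to 29426670 in LL. PL libraries had a higher share of their reads on genes, 33.5% ± 5.25 against 26.2% ± 4.10 in LL (SD, n = 5 and 7; two-sided exact permutation test, p = 0.0278), and LL replicates 6 and 7 averaged 30.3%. The reference genome is that of the planktotrophic morph. The count of genes with at least 1 read was 12902 ± 1175 in PL and 11714 ± 1426 in LL (p = 0.159 in the two-sided exact permutation test), with 13597 and 13790 in LL replicates 6 and 7. Defining markers of oocytes could not be examined, because the files pair no gene identifier with a name.

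The label divided the LL libraries before any comparison of genes. On the first principal component of the 500 most variable genes, which held 45.2% of the variance, PL replicates scored -14.1, -31.4, -31.1, -30.4 and 2.84. LL replicates 6 and 7 scored -22.2 and -26.1, inside the PL range, and LL replicates 1 to 5 lay between 22.5 and 35.4. PL averaged -20.8 ± 15.1 and LL 14.9 ± 27.0 (SD; two-sided exact permutation test, p = 0.0278). Against LL replicates 6 and 7 alone the difference in PC1 was 3.34, of the opposite sign (exact permutation test, p = 0.810, where 0.0476 is the smallest p that 5 against 2 libraries allow). Against LL replicates 1 to 5 it was -51.3 (exact permutation p = 0.00794, the smallest that 5 against 5 libraries allow). In the same exact test p was 0.0667 when PL replicate 3 was dropped and 0.0697 when PL replicate 4 was dropped. It was 0.0541 and 0.0563 on dropping LL replicate 1 or LL replicate 2. PL replicate 5 stood apart on the second component, at 41.8, against -9.17 to 12.7 for the other PL libraries.

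**Figure D1:**
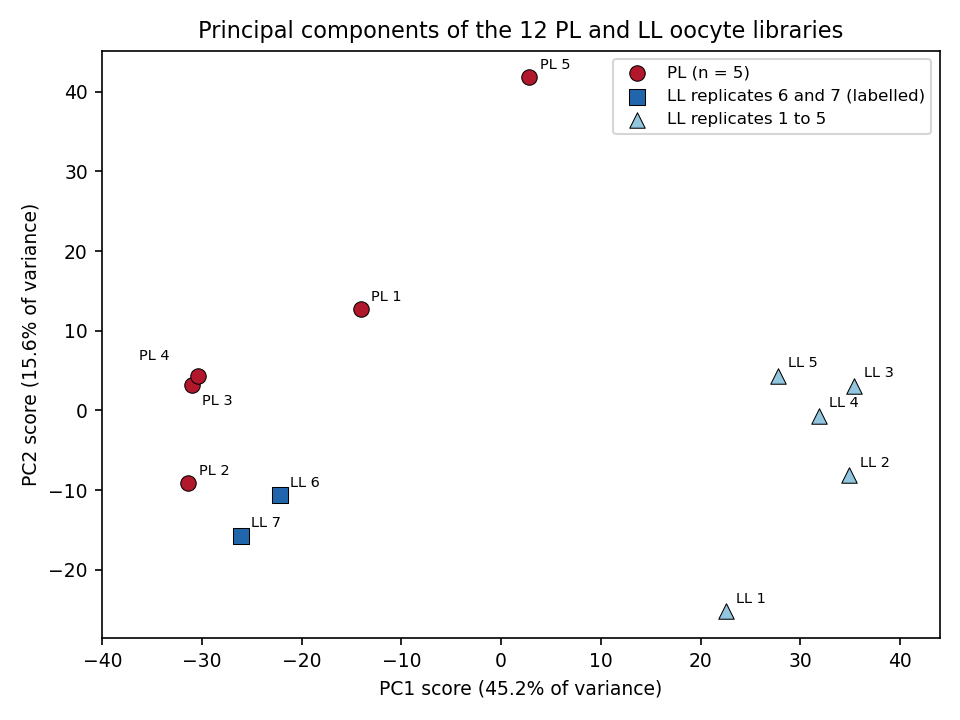
Scores on the first (x axis) and second (y axis) principal component of the 12 libraries, from the 500 most variable genes after a variance stabilizing transformation, with 1 point per library. LL replicates 6 and 7, at -22.2 and -26.1 on PC1, lie with PL, and LL replicates 1 to 5 lie between 22.5 and 35.4.

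Rank correlations of expression over the genes tested are given as a description. They showed the split less clearly. The median was 0.907 for PL with LL replicates 6 and 7 and 0.881 for PL with LL replicates 1 to 5, and the ranges overlapped. PL replicate 5 was at 0.892 and 0.873 with LL replicates 6 and 7, and at 0.877 to 0.920 with LL replicates 1 to 5. Spearman's rho was between 0.873 and 0.926 for the 10 pairs of a PL library with LL replicate 6 or 7, between 0.853 and 0.920 for the 25 pairs with LL replicates 1 to 5, and between 0.874 and 0.965 within PL. The pairs share libraries, and the libraries differ in depth, so no test was attached. The highest value, 0.965, joined PL replicates 3 and 4, whose sample IDs have the same letter, as does that of PL replicate 5. The meaning of the letter is not given in the sources used here.

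Between PL and LL, 97 of 10782 genes tested were differentially expressed (0.900% of the genes tested), meaning a fold change over 1.5 at an adjusted p under 0.1 in edgeR's quasi-likelihood test. At an adjusted p under 0.05 there were 16 in edgeR. With PL replicates 3, 4 and 5, whose sample IDs have the same letter, summed into 1 library, edgeR called 0, with 712 genes at an unadjusted p under 0.05 and 97 called by DESeq2. Of the 97 genes that edgeR called without summing libraries, 53 were higher in PL (0.492%) and 44 were lower in PL (0.408%). The median log2 fold change over all genes tested was 0.02, against 1.61 over the 53 and -4.93 over the 44. The 53 higher genes had a median of 515 normalized counts in PL and 122 in LL, where normalized counts are counts divided by the library's size factor. The 44 lower genes had a median of 6.03 normalized counts in PL and 413 in LL, and 11 of them had no count in any PL library.

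The label was then put into the fit. With a term for it, 2 genes were differentially expressed (0.0185%), none of them higher in PL. Against LL replicates 6 and 7, which carry the same label as PL, 4 genes were differentially expressed (0.0371%), 3 higher and 1 lower in PL. Against LL replicates 1 to 5, 546 genes were differentially expressed (5.06%), 391 higher and 155 lower in PL, and between LL replicates 6 and 7 and LL replicates 1 to 5 there were 206 (1.91%). These comparisons share libraries. The number of libraries also differs between them, and so does the power. In simulated counts with 200 genes changed 3-fold in PL, 43% were recovered for PL against LL. With the label term 24.5% were recovered, and 14.5% against LL replicates 6 and 7. Of the unchanged genes 8, 3 and 1 were called, in the same order. The simulated counts had no label effect and took their spread from the fit without the label term. These shares therefore do not give the power of the fits on the data themselves. With the label term, dropping PL replicate 2 gave 20 genes, dropping LL replicate 4 gave 2, dropping LL replicate 2, 5 or 7 gave 1 each, and dropping PL replicate 1, 3, 4 or 5 or LL replicate 1, 3 or 6 gave 0. Against LL replicates 6 and 7, dropping either of them gave 1. Against LL replicates 1 to 5, dropping PL replicate 3 gave 347, PL replicate 4 gave 334, LL replicate 2 gave 325 and LL replicate 4 gave 354. Within LL, dropping LL replicate 6 gave 113 and LL replicate 7 gave 103.

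Each of the 97 genes was set against LL replicates 6 and 7 by its normalized counts. In 52 genes (27 higher and 25 lower in PL) every PL library lay beyond both LL replicates 6 and 7. Over all genes tested this held for 1454 (13.5%) in the direction of their fitted change, and LL replicates 6 and 7 were themselves among the libraries that gave the 97 calls, so nothing is read from the 52 as separate support. In 27 genes (14 higher and 13 lower) both LL replicates 6 and 7 lay within the PL range or past it in the direction of the call, and 18 genes (12 higher and 6 lower) fitted neither description. In 7 of the 14 higher genes of the second kind at least 1 PL library had no count, so that LL libraries without counts also fell within the PL range. The 53 higher genes had a median log2 fold change of 1.87 against LL replicates 1 to 5 and 1.38 against LL replicates 6 and 7. The 44 lower genes had a median of -5.13 against LL replicates 1 to 5, or -4.91 with genes lacking PL counts set at their bound. For 8 of the 44 no fold exists against LL replicates 6 and 7, and the other 36 had a median of -2.55 there.

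**Figure D2:**
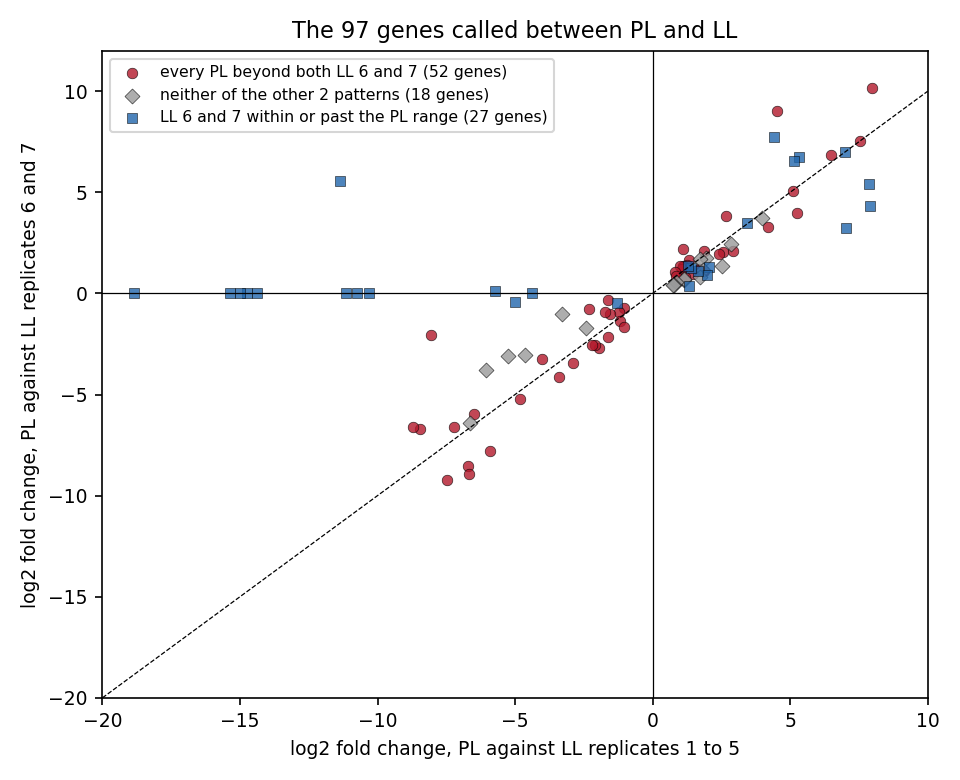
Log2 fold changes of the 97 differentially expressed genes for PL against LL replicates 1 to 5 (x axis) and PL against LL replicates 6 and 7 (y axis), with 1 point per gene and the dashed line at equal values. Genes in which LL replicates 6 and 7 lie within or past the PL range (27 squares) include 8 with no count in PL or in LL replicates 6 and 7, which are drawn at 0 on the y axis and far to the left.

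In 34 of the 97 genes no PL library overlapped any of the 7 LL libraries, 18 higher and 16 lower in PL. Over all genes tested, 160 had no overlap (1.48%). Among the 18 higher genes, 17 were counted in LL, with log2 fold changes of 0.91 to 5.10, and the mean in PL ran from 11.7 to 5089 normalized counts. Among the 16 lower genes, 14 were counted in PL, with log2 fold changes of -0.94 to -7.58, and the mean in LL ran from 31.3 to 9610 normalized counts. Their medians against LL replicates 6 and 7 alone were 1.67 for the higher and -2.55 for the lower genes. In that comparison the 17 higher genes ranged from 0.66 to 9.03 and the 14 lower genes from -0.35 to -5.24. The -7.58 was that of Sbene_G22506, which was at -2.04 (adjusted p = 0.747 in edgeR) against LL replicates 6 and 7.

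The files pair no identifiers with names, and only the 7 differentially expressed genes that the study annotates by function in its text and supplement, with the beta-Actin below, can be described by what they are known to do. The study drew these annotations for genes it had selected on libraries of this series, so that their choice is not independent of the data. Of these 7, 3 were higher and 4 were lower in PL.

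The L-ascorbate oxidase (Sbene_G12796), a copper enzyme that oxidizes vitamin C in plants, had 21.0, 2282, 2224, 2275 and 2319 normalized counts in PL replicates 1 to 5. It had 12.7 and 19.99 in LL replicates 6 and 7, and 16.0, 2.77, 10.4, 53.7 and 18.9 in LL replicates 1 to 5. PL replicates 2 to 5 were thus close together and far above LL, whereas PL replicate 1 sat inside the LL range. On the log2 scale PL differed from LL by 6.59 ± 1.32 (SE, adjusted p = 0.0314 in edgeR), and it was 6.83 ± 2.39 (SE, adjusted p = 0.613 in edgeR) against LL replicates 6 and 7. Beside this, PP averaged 1644 normalized counts (8.06 to 4261) and LP 9.05 (0 to 29.95).

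The Alpha-N-acetylgalactosaminidase (Sbene_G12366), a lysosomal enzyme that removes sugar residues from glycoproteins and glycolipids, had 379, 161, 1006, 758 and 682 normalized counts in PL. It had 225 and 268 in LL replicates 6 and 7, and 95.2 to 195 in LL replicates 1 to 5. PL replicates 1, 3, 4 and 5 were above every LL library and PL replicate 2 was within the LL range. The fitted log2 ratio of PL to LL was 1.80 ± 0.37 (SE, adjusted p = 0.0352 in edgeR). Without PL replicate 3 or PL replicate 4 the adjusted p was 0.144 or 0.111 in edgeR.

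The Calcyphosin-like protein (Sbene_G21994), whose relatives bind calcium, was not counted in PL replicates 1 and 2 and had 141, 129 and 129 normalized counts in PL replicates 3, 4 and 5. LL replicates 6 and 7 had 2.41 and 5.83, and LL replicates 1 to 5 had between 0 and 1.78. Higher levels were thus limited to the 3 PL libraries whose sample IDs have the same letter. In log2 units the change was 5.70 ± 1.46 (SE, adjusted p = 0.0873 in edgeR), and with these 3 libraries summed into 1 it was 4.86 (adjusted p = 0.571 in edgeR).

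Among the genes without annotation, Sbene_G04152 had the largest fold change among the genes higher in PL without overlap that were counted in LL. It had 772, 532, 521, 438 and 414 normalized counts in PL, 19.9 and 11.7 in LL replicates 6 and 7, and 3.71 to 28.4 in LL replicates 1 to 5. All 5 PL libraries were over 10 times the highest LL library. Relative to LL, on the log2 scale, PL was at 5.10 ± 1.16 (SE, adjusted p = 0.0616 in edgeR), and it was 5.09 (adjusted p = 0.664 in edgeR) against LL replicates 6 and 7.

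Sbene_G11336, also without annotation, was higher in PL in the comparisons with all LL and with LL replicates 6 and 7. It had 356, 686, 173, 608 and 295 normalized counts in PL, 0.604 and 0.833 in LL replicates 6 and 7, and 1.78, 0, 6.67, 77.3 and 5.39 in LL replicates 1 to 5. The lowest PL library was above the highest LL library, LL replicate 4. The estimate for PL over LL, in log2 units, was 5.01 ± 0.84 (SE, adjusted p = 0.0310 in edgeR) against LL and 9.03 ± 1.59 (SE, adjusted p = 0.0458 in edgeR) against LL replicates 6 and 7. PP averaged 492 normalized counts (254 to 854) and LP 141 (115 to 161).

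Of the annotated genes lower in PL, the Phenylalanine-4-hydroxylase (Sbene_G17397), the enzyme that converts phenylalanine into tyrosine, was almost without reads in PL. PL replicates had 0, 0, 0.708, 0 and 1.23 normalized counts, from 3 reads in all, against 334 and 516 in LL replicates 6 and 7 and 69.3, 0, 136, 431 and 0 in LL replicates 1 to 5. LL replicates 2 and 5 were thus as low as PL. The pooled level was 370 times higher in LL than in PL (95% interval 127 to 1794, from an exact Poisson interval on the PL reads, counting error only). It was the gene with a lower level in PL in each of the comparisons with all LL (adjusted p = 0.0310 in edgeR), with the label term (0.0780) and with LL replicates 6 and 7 (0.0458). PP averaged 1.57 normalized counts and LP 2.90.

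The other gene found with the label term was Sbene_G01387, without annotation, which had 1 read in PL, in replicate 3. It had 42.3 and 98.3 normalized counts in LL replicates 6 and 7, and 39.1, 15.2, 22.2, 0 and 20.7 in LL replicates 1 to 5. LL replicate 4 was at 0, as were the other PL libraries. The pooled level was 164 times higher in LL than in PL (95% exact Poisson interval 29.4 to 6478, counting error only), with an adjusted p of 0.0518 against LL, 0.0780 with the label term and 0.230 against LL replicates 6 and 7 in edgeR.

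The Ammonium transporter Rh type B-B (Sbene_G17600), which belongs to a family of membrane proteins that let ammonia pass, had 14.0, 37.6, 35.4, 46.5 and 35.6 normalized counts in PL. It had 92.4 and 559 in LL replicates 6 and 7, and 275, 1099, 865, 68.8 and 490 in LL replicates 1 to 5. The PL and LL libraries did not overlap, although LL replicates 4 and 6 were close to PL. On the log2 scale PL differed from LL by -3.83 ± 0.69 (SE, adjusted p = 0.0310 in edgeR), and it was -3.23 ± 0.80 (SE, adjusted p = 0.272 in edgeR) against LL replicates 6 and 7.

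The Synaptic vesicle 2-related protein (Sbene_G03011), a member of a family of membrane transporters, was even among PL libraries, with 80.7, 73.0, 91.3, 80.8 and 67.5 normalized counts. LL replicates 6 and 7 had 168 and 102, and LL replicates 1 to 5 had 742, 150, 245, 442 and 406. Each PL library was below each LL library, and LL replicate 7 was nearest. The fitted log2 ratio of PL to LL was -1.995 ± 0.51 (SE, adjusted p = 0.0873 in edgeR), and -0.76 ± 0.60 (SE, adjusted p = 0.826 in edgeR) against LL replicates 6 and 7.

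An uncharacterized protein (Sbene_G03110) had 0 to 8.34 normalized counts in PL, against 29.6 and 399 in LL replicates 6 and 7. LL replicates 1 to 5 had 435, 211, 572, 328 and 0.898. LL replicate 5 overlapped PL and all other LL libraries were above it. In log2 units the change was -6.37 ± 1.64 (SE, adjusted p = 0.0879 in edgeR).

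**Figure D3:**
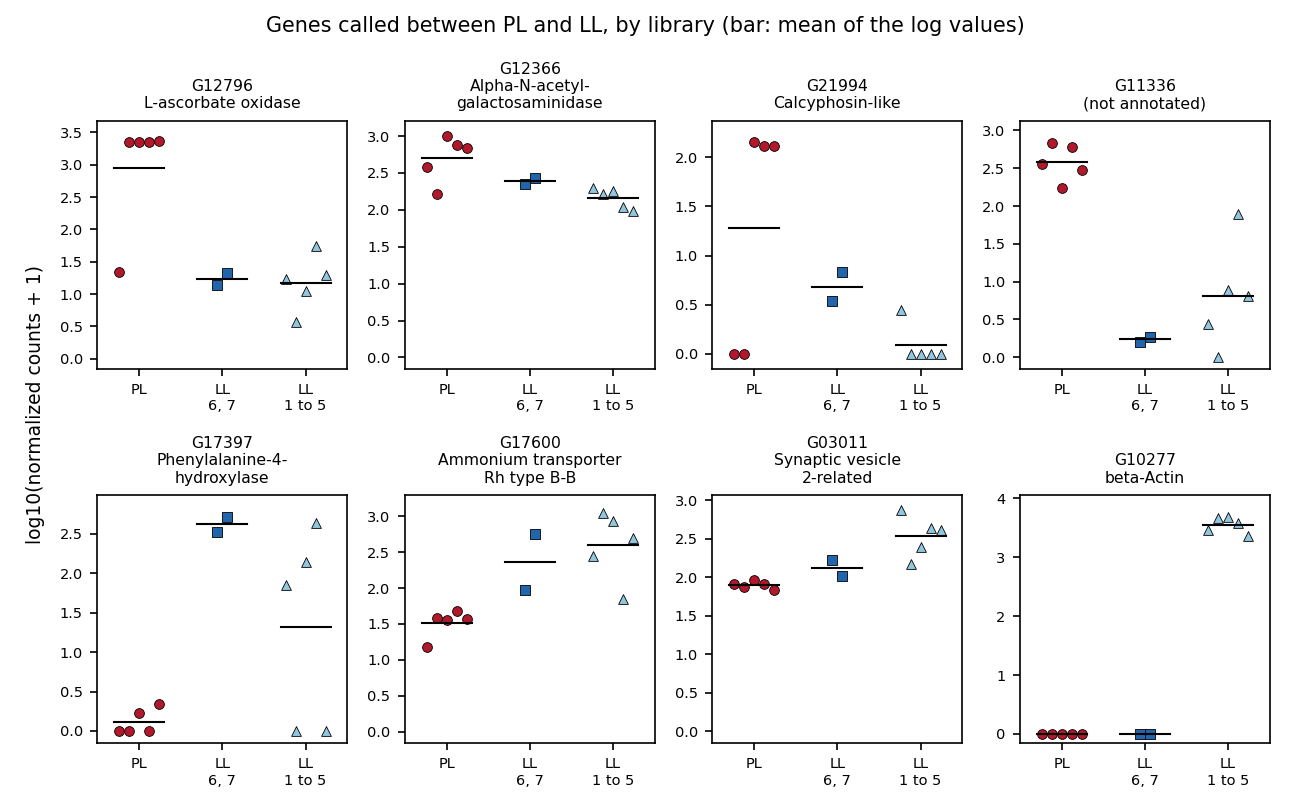
Normalized counts of 8 differentially expressed genes on a log10 scale (y axis, with 1 added), 1 panel per gene, by library for PL, LL replicates 6 and 7 and LL replicates 1 to 5 (x axis), with a bar at the mean of the log values. L-ascorbate oxidase is between 2224 and 2319 in 4 PL libraries and 21.0 in PL replicate 1, and beta-Actin is at 0 in PL and in LL replicates 6 and 7 alike.

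The 2 other genes that differed between PL and LL replicates 6 and 7 did not pass the test of PL against all LL, and were named after their values were seen. Sbene_G05166 had 1561, 947, 657, 1008 and 372 normalized counts in PL, against 25.4 and 29.98 in LL replicates 6 and 7, and 581, 2141, 1289, 1071 and 427 in LL replicates 1 to 5. Sbene_G13039 had 323, 81.4, 476, 554 and 1023 in PL, against 1.81 and 4.16 in LL replicates 6 and 7, and 105, 118, 234, 419 and 128 in LL replicates 1 to 5. In both, LL replicates 6 and 7 were low and LL replicates 1 to 5 overlapped PL. The log2 fold changes against LL replicates 6 and 7 were 5.05 ± 0.91 (SE, adjusted p = 0.0458 in edgeR) and 7.39 ± 1.09 (SE, adjusted p = 0.00744 in edgeR), and those against LL were 0.23 and 1.82 (adjusted p = 0.924 and 0.299 in edgeR).

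The genes with the largest fitted changes followed the label. In 9 genes there was no count in any PL library or in LL replicates 6 and 7, and over 50 normalized counts in each of LL replicates 1 to 5, and 8 of them were among the 44 genes lower in PL. All 9 were also without counts in every LP library and in PP replicate 7, the libraries outside the comparison with the same description. A beta-Actin (Sbene_G10277), a protein of the cytoskeleton commonly used as a reference for expression, was one of them. It had no count in PL or in LL replicates 6 and 7, against 2900, 4622, 4782, 3794 and 2333 normalized counts in LL replicates 1 to 5.

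The most abundant of the 9, Sbene_G10774, which carries no annotation, was likewise without counts in PL and in LL replicates 6 and 7, and had 76198, 56236, 40201, 48836 and 44662 normalized counts in LL replicates 1 to 5. In both genes the adjusted p was 0.0616 for PL against LL in edgeR, and 1 with the label term. Whether the labelled libraries were counted with the same annotation as the others is not given in the sources used here and was not tested. The zeros of the 9 genes are therefore given as counts in the files and not as transcript levels, and no fold is given for any single one of them, although 8 enter the medians above. With the 9 genes left out of the table, 84 genes were differentially expressed between PL and LL, 49 higher and 35 lower in PL. Between LL replicates 6 and 7 and LL replicates 1 to 5, 179 genes then still differed. With the 9 kept, these 2 sets of LL libraries differed in 15 of the 97 genes, against 206 of all 10782 (1.91%). The 15 include 12 of the 13 lower genes in which LL replicates 6 and 7 lay within or past the PL range. Those 13 were grouped by the same libraries, so nothing is read from this as separate support.

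Among the transcription and chromatin factors that the study names, none was differentially expressed between PL and LL in edgeR, among 4 of 5 with enough counts to be tested. At an unadjusted p under 0.05 there were 2, against 1347 of all 10782 genes (12.5%), and DESeq2 called 1, against 469 of 12345 genes (3.80%). The median log2 fold change of the 4 was -1.29, against 0.02 over all genes tested.

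The polycomb protein (Sbene_G10227), of a family that keeps genes silent through chromatin, had 542, 1306, 1040, 1109 and 1046 normalized counts in PL. It had 2328 and 1775 in LL replicates 6 and 7 and 1309 to 2356 in LL replicates 1 to 5. No PL library reached the lowest LL library, although PL replicate 2 and LL replicate 5 were almost equal. Relative to LL, on the log2 scale, PL was at -0.93 ± 0.32 (SE, adjusted p = 0.227 in edgeR), and -1.01 against LL replicates 6 and 7. PP averaged 684 and LP 1119 normalized counts.

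The paired-box protein (Sbene_G17489), of a family of developmental transcription factors, had 10.5, 18.8, 124, 101 and 51.5 normalized counts in PL, against 10.3 and 4.16 in LL replicates 6 and 7 and 0 to 37.7 in LL replicates 1 to 5. PL replicates 3, 4 and 5 were above all LL libraries and PL replicates 1 and 2 were not. The estimate for PL over LL, in log2 units, was 2.62 ± 0.94 (SE, adjusted p = 0.239 in edgeR and 0.0871 in DESeq2).

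The forkhead box protein (Sbene_G06980), also a transcription factor, had 4.04 to 35.1 normalized counts in PL, against 15.1 and 39.1 in LL replicates 6 and 7 and 12.4 to 105 in LL replicates 1 to 5. The kruppel-like factor 15 (Sbene_G10036), a zinc finger transcription factor, had 0 to 8.08 in PL, against 45.3 and 0 in LL replicates 6 and 7 and 4.16 to 83.9 in LL replicates 1 to 5. The visual system homeobox 2 (Sbene_G05917) was at most 1.84 in PL and 20.7 in LL and was not tested. These 3 overlapped between PL and LL, and the first 2 had log2 fold changes of -1.66 and -2.71 (adjusted p = 0.530 and 0.408 in edgeR).

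Notch is a receptor through which neighbouring cells signal to each other, and frizzled-5 is a receptor for Wnt ligands. The study names 6 putative copies of Notch and 1 frizzled-5, of which 6 genes were tested and none was differentially expressed between PL and LL in edgeR. At an unadjusted p under 0.05 there were 2 in edgeR, and DESeq2 called 1, beside the same 12.5% and 3.80% of all genes. Sbene_G09677, the most abundant Notch copy, had 326, 513, 212, 192 and 425 normalized counts in PL, against 354 and 360 in LL replicates 6 and 7 and 343, 2572, 3609, 917 and 222 in LL replicates 1 to 5. Both LL replicates 6 and 7 lay within the PL range, and LL replicates 2, 3 and 4 were above it. Its fitted log2 ratio was -1.81 ± 0.65 (SE, adjusted p = 0.246 in edgeR, 0.0871 in DESeq2), and -0.08 against LL replicates 6 and 7. Against LL replicates 1 to 5 it was -2.17, and there Sbene_G09677 was differentially expressed (adjusted p = 0.0497 in edgeR).

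The Notch copy Sbene_G18208 had 215 normalized counts in PL replicate 2 and 0.708 to 6.75 in the other PL libraries, against 4.83 and 10.8 in LL replicates 6 and 7 and 0 to 7.41 in LL replicates 1 to 5. Its log2 fold change was 3.29 with PL replicate 2 and -0.40 without it. The Notch copies Sbene_G06517, Sbene_G09676 and Sbene_G15020 had log2 fold changes of -2.94, -1.46 and -1.02 (adjusted p = 0.414, 0.584 and 0.574 in edgeR), and Sbene_G13608 was too low to be tested, at most 8.77 in PL and 30.5 in LL. The frizzled-5 (Sbene_G05398) had 2.02 to 110 normalized counts in PL, against 1.21 and 1.67 in LL replicates 6 and 7 and 1.39 to 95.9 in LL replicates 1 to 5, and the log2 ratio was 0.31 (adjusted p = 0.943 in edgeR). All of these overlapped between PL and LL.

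**Figure D4:**
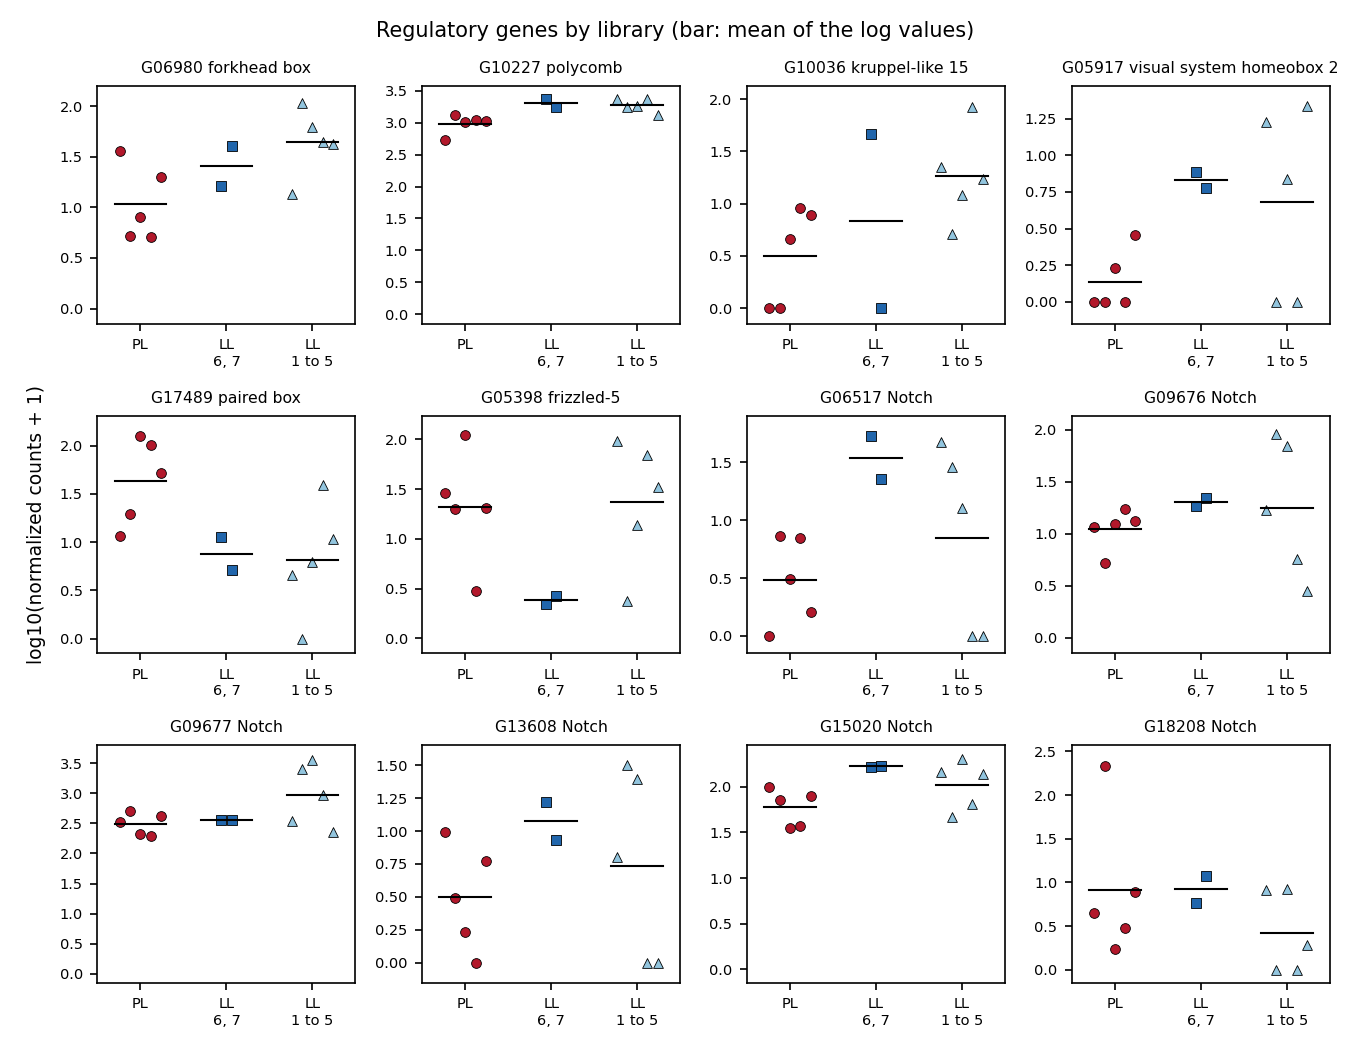
Normalized counts of 12 regulatory genes on a log10 scale (y axis, with 1 added), 1 panel per gene, by library for PL, LL replicates 6 and 7 and LL replicates 1 to 5 (x axis), with a bar at the mean of the log values. The polycomb protein is between 542 and 1306 in PL and between 1309 and 2356 in LL, and each of the other genes overlaps between PL and LL.

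Of the other reference genes, the glyceraldehyde-3-phosphate dehydrogenase (Sbene_G16356), an enzyme of glycolysis, had 65370 to 78578 normalized counts in PL, against 66709 and 56538 in LL replicates 6 and 7 and 59457 to 78190 in LL replicates 1 to 5. On the log2 scale PL differed from LL by 0.13 ± 0.16 (SE, adjusted p = 0.773 in edgeR). A beta-Tubulin (Sbene_G04390), the building block of microtubules, had 15622 to 28941 in PL, against 28749 and 31967 in LL replicates 6 and 7 and 13742 to 34401 in LL replicates 1 to 5, and the log2 ratio was -0.23 ± 0.29 (SE, adjusted p = 0.789 in edgeR). A second beta-Tubulin (Sbene_G09986) had no count in PL and at most 10.4 in LL. Both tested genes overlapped between PL and LL.

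Non-coding genes took a smaller share of the counts in PL. They held 0.0270%, 0.0355%, 0.0104%, 0.0118% and 0.0170% of the counts on genes in PL replicates 1 to 5, against 0.0469% and 0.151% in LL replicates 6 and 7 and 0.103%, 0.135%, 0.0346%, 0.0720% and 0.0260% in LL replicates 1 to 5. Both LL replicates 6 and 7 were above every PL library, and LL replicates 3 and 5 overlapped PL. The share was 0.0204% ± 0.0107 in PL and 0.0811% ± 0.0494 in LL (SD, n = 5 and 7; two-sided exact permutation test, p = 0.0227). Against LL replicates 6 and 7 alone p was 0.0476 in the exact permutation test, the smallest that 5 against 2 libraries allow. PP averaged 0.00995% and LP 0.0358%.

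Of 5995 non-coding genes 128 had enough counts to be tested, and 5 were differentially expressed, all lower in PL (3.91% of those tested, against 0.864% of coding genes). The median log2 fold change of the 128 was -1.81, against 0.02 for the coding genes, and 97 of the 128 had a lower fitted level in PL, against 5284 of all 10782 genes. The filter on low counts can keep a gene through its counts in LL alone, and the non-coding share was highest in LL. This can tilt the 128 toward lower levels in PL, so the 3.91%, the median and the 97 are a description only. The 5 had means of 0 to 19.3 normalized counts in PL and 31.3 to 596 in LL. In 3 of them every PL library was below every LL library, and 2 of these were without a count in PL, which put PL at least 47.9-fold and 56.5-fold lower than LL on the floor of 3 counts over the PL libraries. None of the 5 was differentially expressed against LL replicates 6 and 7 in edgeR, where the 3 that were counted in PL had log2 fold changes of -3.05 to -6.40.

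The genes found at a high mean in only 1 parental morph were followed into PL, as a description, since LL libraries were used to choose them. Of 18 genes with a mean under 10 normalized counts in PP and over 150 in LL, 10 were non-coding. In PL, 4 of the 18 had a mean under 10, 12 lay between 10 and 150, and 2 were over 150, with a median of 34.8. Only the gene annotated as a Transposon Tf2-9 polyprotein (Sbene_G25841), a protein of a mobile element, was over 50 in all 5 PL libraries, at 77.2, 259, 256, 287 and 142. It had 160 and 502 normalized counts in LL replicates 6 and 7 and 44.3 to 233 in LL replicates 1 to 5, overlapping PL, and its mean was 1.21 in PP and 232 in LP.

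The proliferating cell nuclear antigen (PCNA, Sbene_G20530), the sliding clamp of DNA replication, was another of the 18. It had 205, 2.09, 94.8, 172 and 2.45 normalized counts in PL, against 233 and 162 in LL replicates 6 and 7 and 168 to 399 in LL replicates 1 to 5. PL replicates 1, 3 and 4 thus came near or into the LL range, and PL replicates 2 and 5 had almost none. It did not pass the test of PL against LL.

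In the other direction, 7 genes had a mean under 10 in LL and over 150 in PP. None was over 150 in PL, where their means were 2.10 to 57.3 with a median of 12.2, and none was differentially expressed between PL and LL. The Adenylate cyclase type 2 (Sbene_G04522), which makes the messenger cyclic AMP, had 0 to 10.6 normalized counts in PL, against 10.9 and 0.833 in LL replicates 6 and 7 and 0 to 8.88 in LL replicates 1 to 5. Sbene_G00916, without annotation, had 0 to 4.95 in PL, against 2.41 and 0.833 in LL replicates 6 and 7 and 0 to 18.9 in LL replicates 1 to 5. Its mean was 348 in PP (0.741 to 1846) and 1192 in LP (0 to 2479), so its low level in PL did not hold for the reciprocal cross. Sbene_G04522 and Sbene_G00916 each overlapped between PL and LL.

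**Figure D5:**
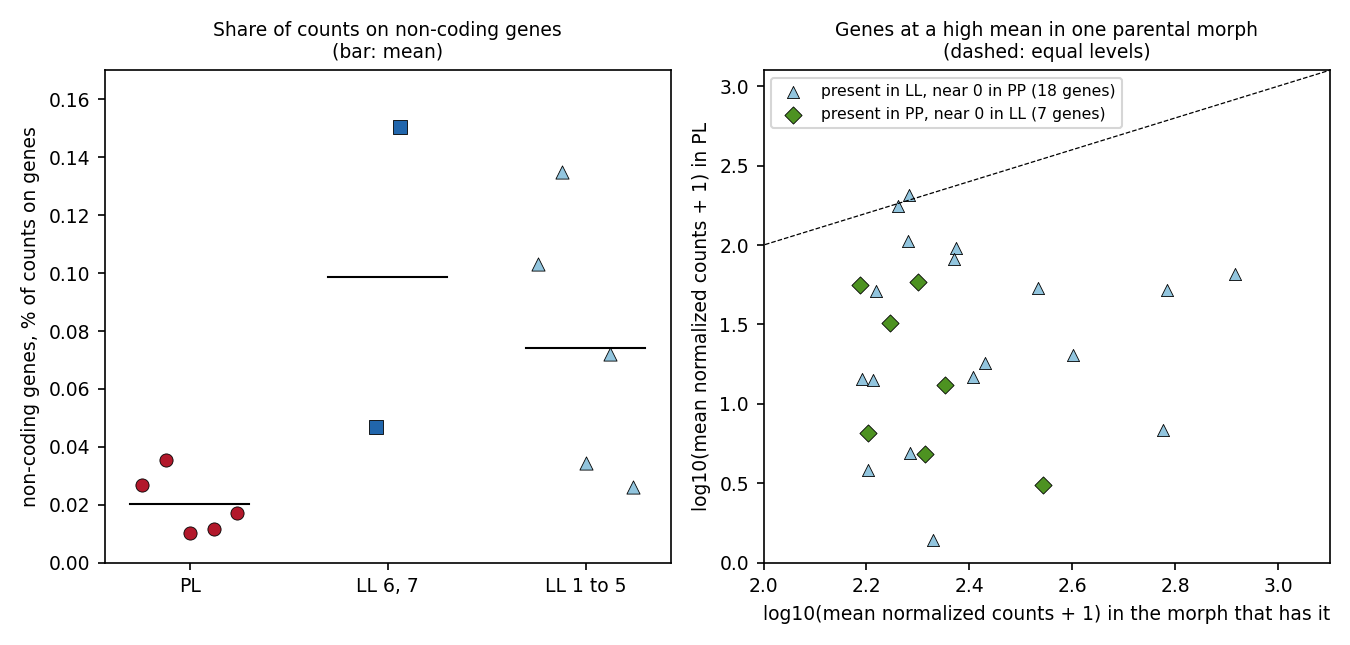
Left, the share of counts on non-coding genes (y axis, percent of counts on genes) by library for PL, LL replicates 6 and 7 and LL replicates 1 to 5 (x axis), with a bar at the mean. Right, the mean in PL (y axis) against the mean in the parental morph that has the gene (x axis), both as log10 of normalized counts plus 1, for the 18 genes near 0 in PP and the 7 near 0 in LL, where 2 genes reach over 150 in PL.

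The calls depended on single libraries. When each of the 12 PL and LL libraries was left out in turn, 9 of the 97 genes were differentially expressed in all 12 fits, 4 higher and 5 lower in PL. These 9 included the L-ascorbate oxidase, the Ammonium transporter Rh type B-B and Sbene_G11336. Every PL library lay beyond LL replicates 6 and 7 in 7 of them, against 52 of the 97 and 13.5% of all genes tested. Of the 5 lower genes, Sbene_G04388, Sbene_G22089 and Sbene_G22506 also differed between LL replicates 6 and 7 and LL replicates 1 to 5. Sbene_G04388 was 5.56 higher, on the log2 scale, in PL than in LL replicates 6 and 7 (adjusted p = 0.308 in edgeR). Leaving out 1 library keeps both sets of LL libraries in the fit. Phenylalanine-4-hydroxylase was differentially expressed in the 7 fits in which it had enough counts to be tested. Its reads lay almost wholly in LL replicates 1, 3, 4, 6 and 7. It was not tested in the remaining fits, so its dependence on the libraries left out there was not examined. Dropping PL replicate 2 left 213 genes called, PL replicates 3 or 4 left 15 each and PL replicate 5 left 22. Dropping LL replicates 1 or 2 left 18 each, LL replicate 3 left 28 and LL replicate 4 left 22. Any other PL or LL library left between 77 and 129.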

How the data were processed

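Unfertilized oocytes were sequenced as 1 library per clutch. Per the labels and the methods of the study, RNA was extracted with Arcturus PicoPure and libraries were made with the NEB UltraII Stranded kit. The authors trimmed reads (Trim Galore), removed rRNA reads, aligned the rest with HISAT2 to the planktotrophic genome and counted them with HTSeq. Versions are not given in the sources used here. The deposited values are raw counts for 26216 genes (20221 coding, 5995 non-coding by identifier). Rows that name no gene were left out, and 18.4% to 37.1% of the reads of the PL and LL files were on genes.

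Counts of all 24 libraries were fitted in edgeR (version 4.0.16, R version 4.3.3) with TMM normalization, its filter on low counts, the quasi-likelihood test and Benjamini-Hochberg adjustment over 10782 genes. The fits had 4 group means, the same with a term for the label, or separate means for labelled and unlabelled PP and LL. The study's thresholds for F1 libraries were kept. Normalized counts use the median of ratios over 24 libraries. DESeq2 (version 1.42.0), other normalizations, filters, thresholds, sets of libraries and left-out replicates were alternatives, and some were chosen after seeing the data: those without the 9 genes at 0, DESeq2 and left-out replicates in both comparisons with LL replicates 1 to 5, PC1 against either set of LL libraries, the other values and genes for the check against LL replicates 6 and 7, and the tests of reads on genes and of genes with a count. The fits were tested on simulated counts, with the shares recovered given above. Principal components and shares were compared with exact permutation tests.

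Members, lists and tests were chosen with earlier results of these data known. Genes were named by size of change, overlap and list. Of genes without annotation at most 2 higher and 2 lower per comparison were named and the rest given as counts and ranges. Annotated genes and single genes outside that rule were chosen after their values were seen. Clutches are separate females. Counting error matters at these depths mainly for genes with few reads.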

Additional observations from a re-analysis of the deposited data

Results flagged for a closer look

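A library far from the rest of its group was found in 10 of 74 groups of 5 PL or 7 LL values examined. The limit used gives about 1 in 20 by chance for normally distributed values. Normalized counts hold many zeros, and some genes were chosen after their values were seen. The 10 are therefore a description and are not read as more than chance gives. In PL, L-ascorbate oxidase (Sbene_G12796) was at 21.0 normalized counts in replicate 1, far below the other 4. The Notch copy Sbene_G18208 was at 215 in PL replicate 2 and frizzled-5 (Sbene_G05398) at 110 in PL replicate 3, each far above the other PL libraries, and Sbene_G01387 was at 0.708 in PL replicate 3, from 1 read.

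In LL, replicate 4 was the highest for L-ascorbate oxidase (53.7 normalized counts), Sbene_G11336 (77.3) and the paired-box protein Sbene_G17489 (37.7). LL replicate 7 was the highest for the Calcyphosin-like protein Sbene_G21994 (5.83), Sbene_G01387 (98.3) and the Transposon Tf2-9 polyprotein Sbene_G25841 (502). The causes were not tested.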

How the results depend on the processing

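For PL against LL, 97 genes were called by edgeR, and the count was 469 with DESeq2 (all 97 among them), 16 at an adjusted p under 0.05, 434 with a replicate block and 0 with PL replicates 3, 4 and 5 summed into 1 library (edgeR). At 0 there were 712 genes at an unadjusted p under 0.05 and 97 called by DESeq2. RLE normalization, other filters, the 12 libraries alone and 1 factor of unwanted variation gave 72 to 141. Leaving out 1 replicate gave 15 to 213. With the label term, 2 genes were called by edgeR, and the count was 175 with DESeq2, 0 at an adjusted p under 0.05 (94 with DESeq2, 995 at an unadjusted p under 0.05), 11 without a filter on low counts, 1 with the replicate block, and 0 to 20 without 1 replicate. Against LL replicates 6 and 7 there were 4, with 152 in DESeq2, 7 without a filter, 14 in a fit of the 7 libraries alone and 1 to 6 without 1 replicate. Against LL replicates 1 to 5 DESeq2 called 991 (325 to 625 in edgeR without 1 replicate), and between LL replicates 6 and 7 and LL replicates 1 to 5 it called 522 (103 to 207). Every PL library was beyond LL replicates 6 and 7 in 52 of 97 genes, and in 216 of the 469 called by DESeq2. The difference in the non-coding share kept its direction under all alternatives run (exact permutation p of 0.0130 to 0.0485), at -0.0700 to -0.0492 percentage points without 1 replicate. The difference in PC1 was -42.9 to -31.0 without 1 replicate, and 3.34 with LL replicates 6 and 7 alone.

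Replicate numbers are shared by PL and LL, but the clutches came from different females, and same-numbered libraries had correlations of -0.09 to 0.16 in their deviations from the group means, so the number did not pair them, and not every library correlated best with its own number. LL replicates 6 and 7 share a block only with PP libraries in that fit, so they enter its contrast only indirectly, through PP. Of genes not called, frizzled-5 (Sbene_G05398) was at -0.61 on the log2 scale with the block and -0.77 to 0.93 without 1 replicate. The Transposon Tf2-9 polyprotein (Sbene_G25841) was at -0.0663 with the factor of unwanted variation, -0.0719 with summed libraries and -0.0511 to 0.57 without 1 replicate. Without 1 replicate Sbene_G05166 was at -0.0525 to 0.70, Sbene_G18208 at -0.40 to 3.68 and Sbene_G00916 at -1.98 to 0.00247.

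The 5 PL clutches, 3 with 1 letter in their sample IDs, limit the power, and only LL replicates 6 and 7 share the label of PL. The sequencing run of single libraries is not given, so a difference of run cannot be told apart from a difference of cross. Genes with 3 reads or fewer over PL give no fold beyond a bound or an interval.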

Other observations

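The 97 genes were also looked at for the 3 PL libraries whose sample IDs have the same letter. In 33 of the 97 genes (34%) PL replicates 3, 4 and 5 lay all above or all below PL replicates 1 and 2, against 36.9% of all genes tested. Among the 53 genes higher in PL, these 3 libraries were all above the other 2 in 19 genes and all below in 4, against 1426 and 736 of all 5498 genes tested with a higher fitted level in PL. Among the 44 lower genes they were above in 4 and below in 6, against 588 and 1224 of all 5284 genes with a lower fitted level in PL.

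PP replicate 7 has the same description of 2 technical replicates, and PP replicates 1 to 6 have none. On the log2 scale of normalized counts plus 1, PP replicate 7 differed from the mean of PP replicates 1 to 6 by a median of -0.67 over the 44 genes lower in PL and 0.15 over the 53 higher in PL, against 0.12 over all genes tested. Over the 13 lower genes in which LL replicates 6 and 7 lay within or past the PL range, the median was -9.11, and over the 25 lower genes in which every PL library lay below LL replicates 6 and 7 it was 0.14. Of the 13, 8 were genes without a count in any labelled library, PP replicate 7 included. Their zeros enter the -9.11 and the -0.67, and nothing is read from these medians as separate support. The cause was not tested.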
